A study of Mus musculus with 66 samples.

Results

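Nampt and the 7 sirtuin genes, Sirt1 to Sirt7, were followed over a day in the ventral striatum of mice given saline or cocaine. They are the 8 rows, of 24138 genes in the deposited expression table, whose symbol is that of a sirtuin or of Nampt, by a rule that used symbols alone. The mice were C57BL/6 males, 3 to 5 months old, kept in 12 h of light and 12 h of dark, and were either wild type (WT) or iMSN-D2RKO. iMSN-D2RKO mice lack the dopamine D2 receptor in the striatal neurons that normally carry it, the indirect pathway medium spiny neurons (iMSNs): both D2R alleles are flanked by loxP sites (D2R flox/flox) and 1 Cre transgene is driven by the dopamine D1 receptor promoter (D1R-CRE+/-), which is active in the embryonic precursors of these neurons. Whether WT controls carried floxed alleles is not given in the sources used here. Mice received 1 intraperitoneal injection at zeitgeber time 3 (ZT3, hours after lights on), of saline or of cocaine at 20 mg/kg, and punches of the nucleus accumbens (NAcc) region were taken at ZT7, ZT11, ZT15, ZT19 and ZT23. For each genotype a single group at ZT3, called the baseline here, served both treatments, which gave 22 groups of 3 numbered replicates and 66 libraries of poly(A)-selected RNA. The deposited design text gives 3 animals per time point; whether each library is 1 animal is not settled by the sources used here, and p-values rest on the spread among the 3 libraries of a group.

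Nampt encodes the enzyme that turns nicotinamide into nicotinamide mononucleotide, the slow step by which most tissues salvage NAD. Sirtuins spend that NAD to remove acetyl and other acyl groups from proteins. SIRT1, SIRT6 and SIRT7 are found mainly in the nucleus, SIRT2 mainly in the cytoplasm, and SIRT3, SIRT4 and SIRT5 in mitochondria. In liver the circadian activators CLOCK and BMAL1 drive Nampt through E-box elements, and SIRT1 acts back on the clock proteins, so the family is often examined for daily rhythms. In the brain SIRT1 in medium spiny neurons has been tied to behavioural responses to cocaine, and SIRT2 is abundant in oligodendrocytes and myelin.

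Upstream sequences are shown for the 3 members whose promoter held one of the clock or nuclear receptor motifs searched. All 8 genes matched the RefSeq promoter table of GRCm38.p6, which gives 250 bases before and 50 after each start; Sirt3 and Sirt6 have a pair of starts each. Motifs were sought on both strands in those 300 bases. The E-box CACGTG was found in 7.15% of the 32851 promoters of the table. The E-box variant CACGTT was found in 4.68% and the D-box TTATGNAA in 3.38%. AGGTCA, a core that nuclear receptors such as REV-ERB, ROR and PPAR share, was found in 16.3%, and the CREB element TGACGTCA in 1.79%. AGGTCA alone is only a part of the full elements of those receptors, which were not searched for. The 250 bases before the start follow, 5′ to 3′ on the strand of the gene, with matches in capitals.
Sirt1 (chr10:63339036-63339285, minus strand): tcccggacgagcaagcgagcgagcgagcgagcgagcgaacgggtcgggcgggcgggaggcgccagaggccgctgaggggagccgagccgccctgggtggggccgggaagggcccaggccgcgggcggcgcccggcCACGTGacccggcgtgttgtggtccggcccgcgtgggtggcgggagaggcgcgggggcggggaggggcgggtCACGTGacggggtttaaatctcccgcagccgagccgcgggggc
Nampt (chr12:32820085-32820334, plus strand): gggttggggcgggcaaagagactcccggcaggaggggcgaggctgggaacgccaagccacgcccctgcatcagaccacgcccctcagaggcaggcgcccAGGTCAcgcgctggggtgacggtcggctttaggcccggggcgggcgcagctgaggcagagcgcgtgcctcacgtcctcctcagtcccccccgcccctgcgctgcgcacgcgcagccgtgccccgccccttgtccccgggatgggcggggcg
Sirt5 (chr13:43365285-43365534, plus strand): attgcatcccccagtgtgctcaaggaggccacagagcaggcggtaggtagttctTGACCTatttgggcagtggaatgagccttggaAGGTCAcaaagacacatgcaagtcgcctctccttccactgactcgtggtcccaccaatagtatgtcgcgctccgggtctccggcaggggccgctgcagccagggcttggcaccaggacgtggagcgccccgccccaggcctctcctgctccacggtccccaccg
Sirt1 held CACGTG at -115 to -110 and again at -43 to -38, counted back from the start. Nampt held AGGTCA at -151 to -146. Sirt5 held it at -164 to -159 and, on the opposite strand, at -196 to -191. These are matches of letters within a short window, and none of the 5 motifs was found in the windows of Sirt2, Sirt3, Sirt4, Sirt6 or Sirt7.

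Before any comparison, 13 of the 66 libraries stood apart from the others of their own groups. A score was taken along the main axis of the differences among replicates of a group, over 9576 genes and without the 8 members; this axis held 43.5% of the variance within groups. The 13 libraries, called set-apart below, scored from 44.2 to 56.0, and the next library, WT cocaine ZT19 replicate 2, scored 15.04. WT mice gave 6 of them and iMSN-D2RKO mice 7, at ZT7, ZT15, ZT19 and ZT23 and never at ZT3 or ZT11. At ZT19 they made up 2 of 3 libraries in WT saline, WT cocaine and iMSN-D2RKO saline, and 0 of 3 in iMSN-D2RKO cocaine, so that at this hour library kind and group are entangled. Results that rest on them are given beside their values without them where these could be had. Total FPKM (fragments scaled to transcript length and library depth) ran from 364078 to 690048 per library, with 12496 to 13028 genes at 1 FPKM or more; read numbers are unknown. All 8 spiny neuron markers examined were detected. Drd2, the targeted gene, gave 150.3 ± 53.6 FPKM in WT (SD, n = 33) and 144.8 ± 77.6 in iMSN-D2RKO (SD, n = 33), so the gene total did not separate the genotypes (log2 difference in saline -0.02, SE 0.166, adjusted p = 0.978; after cocaine -0.25, adjusted p = 1), and the genotype rests on the labels. At single time points its smallest adjusted p was 0.059, at ZT19 after cocaine (-1.11). Penk, the iMSN neuropeptide precursor, was higher in iMSN-D2RKO mice after saline (log2 difference 0.76, adjusted p = 0.0165; 0.0609 when set-apart libraries were left out) and after cocaine (0.70, adjusted p = 0.0224; 0.0574). Penk was the only one of the 8 spiny neuron markers called for level. Its values in iMSN-D2RKO libraries reached 9282 FPKM around a median of 2201, and in WT 2277 FPKM around a median of 1317 (n = 33 each). In punches, fewer cells of a type and less RNA per cell cannot be told apart.

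Sirt2 was by far the most abundant member. Its level averaged 102.5 ± 16.7 FPKM over the 66 libraries (SD, n = 66), above that of 95.2% of the 14643 genes that reached 1 FPKM in at least 1 library. Sirt3 followed with 29.98 ± 10.4 FPKM, Sirt7 with 21.1 ± 5.33 and Nampt with 17.4 ± 7.36. Sirt4 (9.54 ± 2.53), Sirt6 (8.53 ± 2.1), Sirt5 (7.81 ± 1.85) and Sirt1 (6.10 ± 2.46) lay close together, and Sirt1 was above 39.0% of the genes. Sirt2 exceeded Sirt3 in 66 of 66 libraries, while Sirt3 exceeded Sirt7 in 52 and Sirt7 exceeded Nampt in 52. Nampt exceeded Sirt4 in 61, Sirt4 exceeded Sirt6 in 46, Sirt6 exceeded Sirt5 in 36 and Sirt5 exceeded Sirt1 in 52. Only the step from Sirt2 to Sirt3 was wider than the spread over libraries, and every other pair of neighbours overlapped. The nuclear members therefore included the lowest gene, Sirt1, and one of the higher ones, Sirt7.

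**Figure D1:**
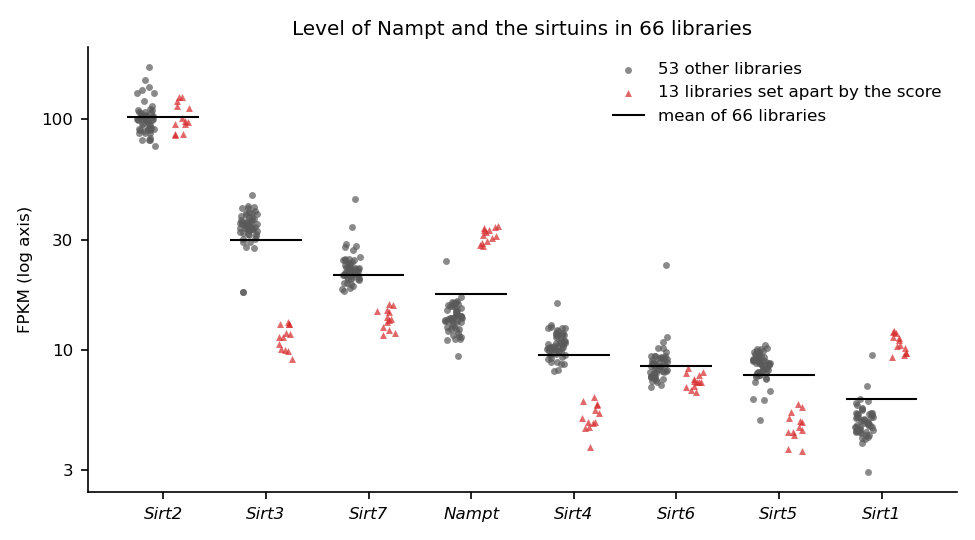
Level in FPKM on a log axis (vertical) of Nampt and the 7 sirtuins (horizontal), 1 point for each of the 66 libraries, with the 13 set-apart libraries as red triangles and the mean of all 66 as a line. Sirt2 lies above all others, and the triangles stand above the circles for Nampt and Sirt1 and below them for Sirt3, Sirt4, Sirt5 and Sirt7.

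The ranges of Nampt, Sirt3, Sirt4 and Sirt7 did not overlap between library kinds, and those of Sirt1 and Sirt5 overlapped slightly. The share of all genes that separate in this way is not given. Nampt lay between 9.42 and 24.3 FPKM in the 53 other libraries and between 28.1 and 34.6 FPKM in the 13 set-apart ones, with no overlap. Sirt3 lay between 17.8 and 46.9 FPKM in the others and between 9.13 and 13.2 in the set-apart ones, again without overlap and in the opposite direction. Sirt1 ran from 2.94 to 9.47 against 9.30 to 12.04 FPKM, touching only through WT cocaine ZT19 replicate 2. Sirt4 (8.13 to 15.96 against 3.80 to 6.26) and Sirt7 (18.04 to 45.1 against 11.6 to 15.9) did not overlap, and Sirt5 overlapped slightly (4.95 to 10.5 against 3.64 to 5.80). Sirt2 (76.3 to 168 against 85.4 to 125) and Sirt6 (6.91 to 23.4 against 6.57 to 8.38) overlapped widely.

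**Figure D2:**
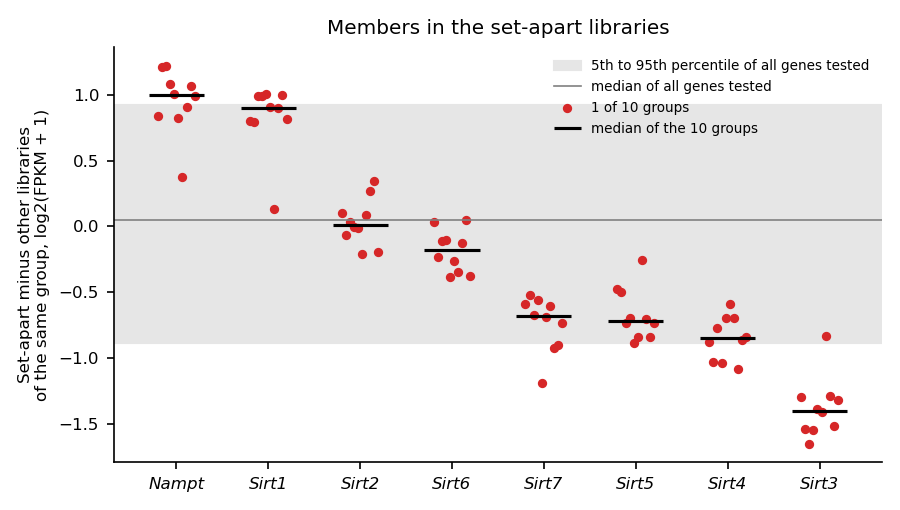
Difference in log2(FPKM + 1) between set-apart and other libraries of the same group (vertical) for each of the 8 members (horizontal), 1 point for each of the 10 groups that held both kinds, with their median as a bar and the 5th to 95th percentile of all genes tested as a grey band. Nampt and Sirt1 lie above 0 in every group, Sirt3, Sirt4, Sirt5 and Sirt7 below 0 in every group, and Sirt2 and Sirt6 on both sides.

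Within the 10 groups that held both kinds, Nampt was higher in the set-apart libraries by a median of 0.999 on the log2(FPKM + 1) scale and Sirt1 by 0.90, in 10 of 10 groups each. The median difference was -1.40 for Sirt3, -0.85 for Sirt4, -0.72 for Sirt5 and -0.68 for Sirt7, lower in 10 of 10 groups each, against -0.18 for Sirt6 and 0.01 for Sirt2. Over all 14643 genes the median was 0.0497, the middle 90% ran from -0.888 to 0.924, and 7.18% lay past 1 in either direction. Of all genes 3.55% lay higher than Nampt and 5.45% higher than Sirt1. The shares lower than Sirt3, Sirt4, Sirt5 and Sirt7 were 1.04%, 5.65%, 8.07% and 8.94%. Across the 13155 genes with a coding transcript in GENCODE M21 (89.8%), the difference had a Spearman rho of -0.643 with the GC content of the longest transcript and 0.386 with its length. That transcript has 4527 bases and 40.3% GC for Nampt and 4430 bases and 44.0% GC for Sirt1, against 1606 to 2425 bases and 47.4% to 58.4% GC for the other 6 members. These values are descriptions, and the part of transcript length and GC content in the members' differences was not tested.

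Daily rhythm was first examined with JTK_CYCLE, a rank test for waves with periods of 20 and 24 h, with a corrected p under 0.01 as the call. In WT saline mice 1 member was called (Sirt1), in a series in which 9.81% of 13940 genes were. In WT cocaine mice 2 members were called (Sirt1 and Sirt5), where 7.61% of genes were. In iMSN-D2RKO mice 0 members were called after saline, where 2.58% of genes were, and 0 after cocaine, where 1.1% were. Each call is 1 of only 8 members, so these shares and those of all genes cannot be ranked. A second test, limma's F test of any difference among the 6 time points, called 4 members in WT cocaine mice (Sirt5, Nampt, Sirt1 and Sirt3), where 28% of genes were called. It called 0 members in WT saline, where 1.6% of genes were called, 0 in iMSN-D2RKO saline (3.49%) and 0 in iMSN-D2RKO cocaine (0.997%). Without correction for the number of genes it gave p under 0.05 for 3, 3 and 0 members in those 3 series.

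**Figure D3:**
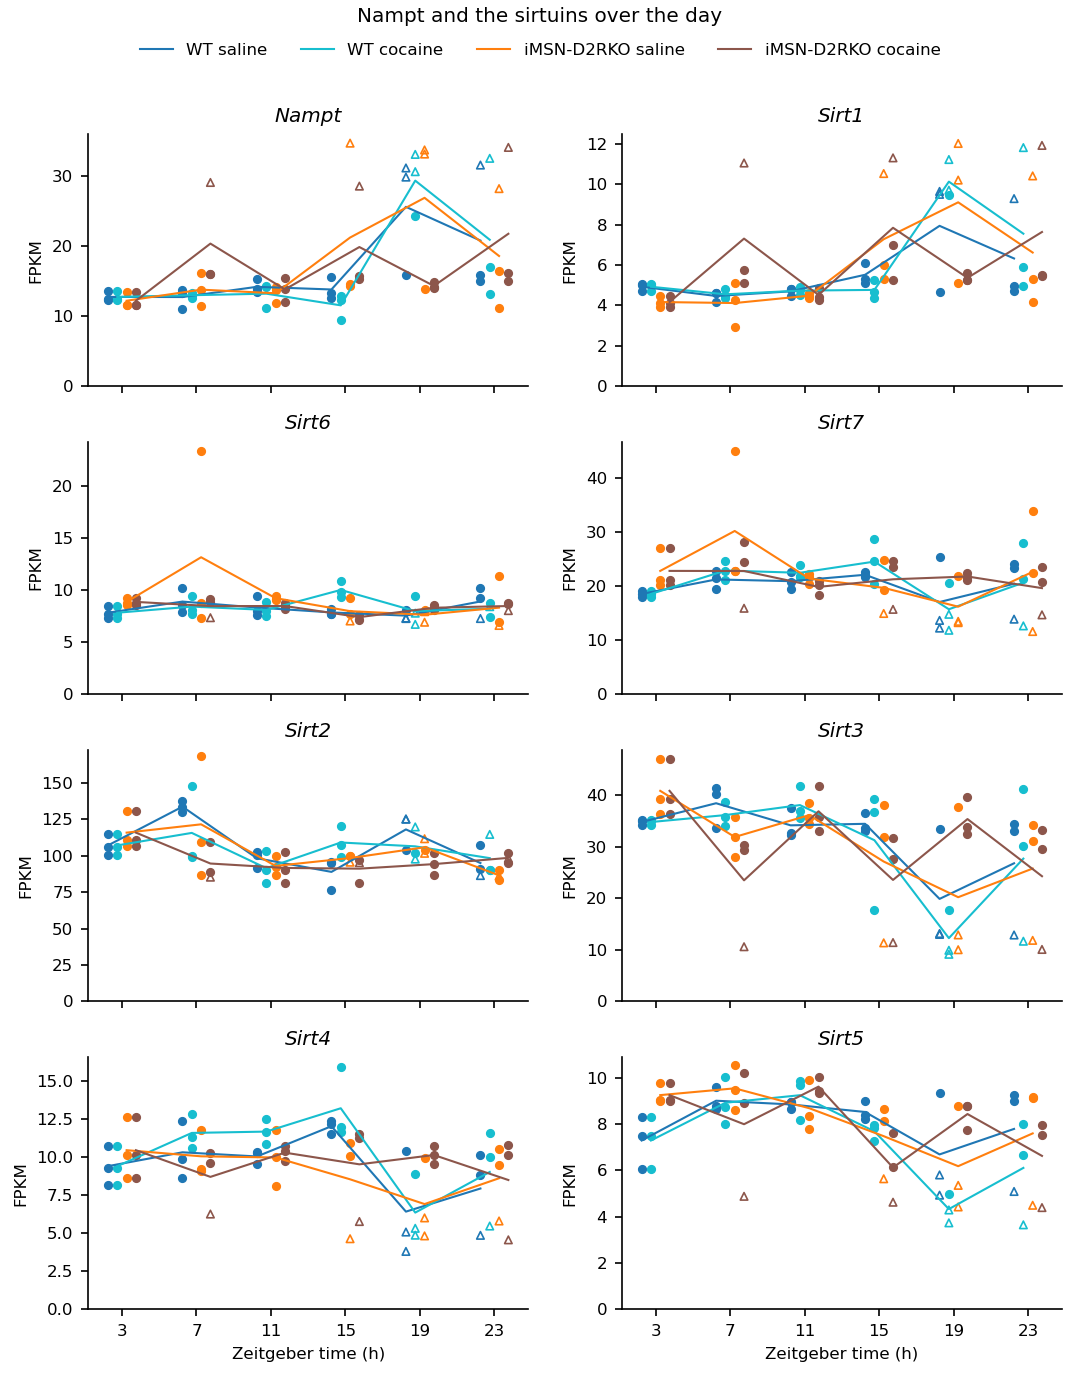
FPKM of each member (vertical) against zeitgeber time (horizontal, h) in the 4 series, 1 point per library with the mean of each group joined by lines; the ZT3 baseline group is drawn in both treatments of its genotype, and open triangles are set-apart libraries. The high Nampt and Sirt1 values and the low Sirt3 values at ZT19 and ZT23 are mostly triangles.

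Nampt, at chr12:32819545-32853349 on the plus strand (GENCODE M21, GRCm38, the assembly of mm10), overlaps the noncoding gene Gdap10 on the same strand. In WT saline mice it measured 12.7 ± 0.69 FPKM at ZT3, 12.7 ± 1.4 at ZT7, 14.1 ± 0.93 at ZT11 and 13.8 ± 1.5 at ZT15, then 25.5 ± 8.5 at ZT19 and 20.7 ± 9.3 at ZT23 (SD, n = 3 each). The wide late error came from mixed groups: at ZT19 the set-apart replicates 1 and 2 gave 29.8 and 31.1 FPKM and replicate 3 gave 15.8 FPKM. In WT cocaine mice the ZT19 libraries gave 30.5, 24.3 and 33.0 FPKM, replicate 2 being the only one not set apart and the highest of all 53 such libraries. Baseline values at ZT3 were 13.5, 12.3 and 12.3 FPKM in WT and 13.4, 11.5 and 11.5 FPKM in iMSN-D2RKO, so all 3 WT cocaine libraries at ZT19 were above all baseline ones. Without the set-apart libraries the WT cocaine series keeps only replicate 2 at ZT19, so no p is given for that F test. Nampt differed over time in WT cocaine mice by the F test on all libraries (adjusted p = 0.0118, and 0.0153 with the score as a covariate). The F test call was lost without WT cocaine ZT19 replicate 1 (adjusted p = 0.0574) or replicate 3 (adjusted p = 0.0701). JTK_CYCLE did not call Nampt in any series (exact p = 0.0623 in WT saline, 0.783 in WT cocaine, 0.148 in iMSN-D2RKO saline and 1 in iMSN-D2RKO cocaine).

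Sirt1, the best studied nuclear deacetylase of the family, lies at chr10:63319005-63381704 on the minus strand, where the antisense gene Gm16145 overlaps it. In WT saline mice its level was 4.92 ± 0.20 FPKM at ZT3, 4.47 ± 0.26 at ZT7, 4.70 ± 0.21 at ZT11, 5.52 ± 0.54 at ZT15, 7.95 ± 2.8 at ZT19 and 6.33 ± 2.6 at ZT23 (SD, n = 3 each). At ZT19 the replicates gave 9.51, 9.66 and 4.68 FPKM, with replicates 1 and 2 set apart, and at ZT23 the set-apart replicate 1 gave 9.30 FPKM against 4.97 and 4.72 FPKM. At ZT15, where no WT library was set apart, the 3 saline values of 6.13, 5.11 and 5.32 FPKM were above the 3 at ZT7, 4.63, 4.17 and 4.60 FPKM. JTK_CYCLE gave Sirt1 in WT saline an exact p of 0.000337, a period of 20 h, a peak at ZT19 and an amplitude of 0.471 FPKM around a mean of 5.65 FPKM; adjusted over all genes (Benjamini-Hochberg) the p was 0.0244. Leaving out the set-apart libraries gave an exact p of 0.0435, removing the score gave 0.0359, and the exact p was 0.03 without either WT saline ZT19 replicate 1 or replicate 2, so the call ended in each case.

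In WT cocaine mice Sirt1 was called with an exact JTK_CYCLE p of 0.00755, a period of 24 h and a peak at ZT21, but its p adjusted over all genes was 0.101. Its cocaine values stayed between 4.38 and 5.27 FPKM from ZT7 to ZT15. They were 9.72, 9.47 and 11.2 FPKM at ZT19, and 5.90, 4.95 and 11.8 FPKM at ZT23, where replicate 3 was set apart. The ZT19 group therefore stood clear of every earlier WT cocaine library. Its 1 library that was not set apart, replicate 2, had the highest score of all such libraries (15.04). The share of all genes that stand clear in this way is not given. Leaving out the set-apart libraries gave an exact p of 0.171 and removing the score 0.0269, and 13 of the 18 libraries of this series changed the number of members called when left out. By the F test the adjusted p was 0.0224 (0.131 with the score as a covariate). It was 0.0712, 0.0565 and 0.109 without WT cocaine ZT19 replicates 1, 2 and 3. No p is given for the F test without the set-apart libraries, which keeps a single library at ZT19. In iMSN-D2RKO saline mice Sirt1 just missed the call (exact p = 0.0106, peak ZT19), and after cocaine its p was 0.783 by the same exact test.

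Sirt6, which acts on chromatin and in DNA repair, and Sirt7, which acts in the nucleolus, were called in no test of time. Sirt6 (chr10:81621785-81627797, minus strand, no overlapping gene) had group means from 7.37 ± 0.26 to 9.99 ± 0.77 FPKM in 21 of the 22 groups. The exception was iMSN-D2RKO saline ZT7 with 13.1 ± 8.9 FPKM, where replicate 1 gave 23.4 FPKM against 7.31 and 8.70 FPKM. Sirt7 (chr11:120618372-120625240, minus strand, overlapping Mafg and Mir6936 on that strand) gave 45.1 FPKM in the same library against 22.7 and 22.9 FPKM in the others of its group. That library had the largest total FPKM of the series, 690048. It was not among the set-apart libraries. For Sirt6 the smallest exact JTK_CYCLE p over the 4 series was 0.0359, in iMSN-D2RKO cocaine, and for Sirt7 it was 0.133, in WT cocaine.

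Of the mitochondrial members, 2 were called over time in WT cocaine mice, both with their lowest means at ZT19. Sirt5, a desuccinylase (chr13:43365496-43395203, plus strand), was called in WT cocaine mice with an exact JTK_CYCLE p of 0.00255, a period of 24 h, a peak at ZT9 and an amplitude of 1.03 FPKM; adjusted over all genes the p was 0.0696. Its WT cocaine means were 8.92 ± 1.0 FPKM at ZT7, 9.24 ± 0.92 at ZT11, 7.68 ± 0.36 at ZT15, 4.32 ± 0.61 at ZT19 and 6.10 ± 2.2 at ZT23, from a baseline of 7.29 ± 1.1 (SD, n = 3 each). The ZT19 libraries of 3.73, 4.95 and 4.28 FPKM lay below every WT cocaine library of ZT7, ZT11 and ZT15. Leaving out the set-apart libraries gave an exact p of 0.0296, and removing the score gave 0.0623. The F test gave Sirt5 an adjusted p of 0.0111 (0.0444 with the score as a covariate, 0.0645 without WT cocaine ZT19 replicate 1). Without the set-apart libraries a single WT cocaine library is left at ZT19, so no p is given for that F test. In WT saline mice the exact p was 0.783, with ZT19 values of 4.92, 5.80 and 9.33 FPKM in which replicate 3 was the library not set apart.

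Sirt3, the main mitochondrial deacetylase (chr7:140863666-140882309, minus strand, overlapping Psmd13 and Ric8a on the other strand), gave 9.91, 17.8 and 9.13 FPKM in WT cocaine mice at ZT19, against 36.1 ± 2.4 at ZT7 and 38.1 ± 3.2 at ZT11 (SD, n = 3 each). It was called by the F test in WT cocaine mice (adjusted p = 0.0337, and 0.26 with the score as a covariate). The call was lost without replicate 1 (adjusted p = 0.174) or replicate 3 (adjusted p = 0.194) of that ZT19 group. No p is given for the F test without the set-apart libraries, which keeps a single library of that group. JTK_CYCLE gave Sirt3 an exact p of 0.0809 in WT cocaine and 0.128 in WT saline. Sirt4, a lipoamidase and ADP-ribosyltransferase (chr5:115478010-115484725, minus strand), was called in no series, and its exact p in WT cocaine was 0.0146. Its WT cocaine level was 13.2 ± 2.4 FPKM at ZT15 and 6.35 ± 2.2 at ZT19 (SD, n = 3 each), with a ZT19 value of 8.87 FPKM in the library that was not set apart.

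Sirt2, the cytoplasmic tubulin deacetylase (chr7:28766735-28788661, plus strand, overlapping Nfkbib on the other strand), was not called in any test. Its WT saline level was 134 ± 3.7 FPKM at ZT7 (130, 133 and 138 FPKM) and 89.0 ± 11 at ZT15 (SD, n = 3 each), and the F test over time gave an adjusted p of 0.0817, the smallest of the members in that series. Within groups, Sirt2 moved with the markers of oligodendrocytes. Over the 50 libraries of 19 groups that were not set apart and had such a partner in their group, deviations of Sirt2 from its group mean correlated with those of the mean of 8 oligodendrocyte markers (Mbp, Mog, Mag, Mobp, Cnp, Cldn11, Ermn and Opalin) with Pearson's r = 0.79 and Spearman's rho = 0.77 (permutation p = 1e-05 for each, the smallest that the draws can give). Without the 2 libraries farthest on the marker axis r was 0.713 (permutation p = 2e-05). It was 0.645 over all 66 libraries, 0.722 with the score removed and 0.859 without iMSN-D2RKO saline ZT7 replicate 1. The summed level of the markers ran from 1452 to 4955 FPKM. Sirt2 deviated from its group means by -0.42 to 0.52 on the log2 scale.

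**Figure D4:**
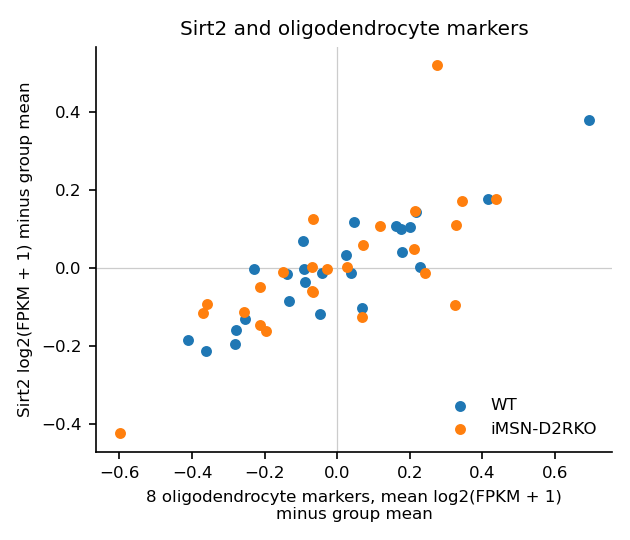
Deviation of Sirt2 from its group mean (vertical, log2) against that of the mean of 8 oligodendrocyte markers (horizontal, log2) in 50 libraries that were not set apart, 1 point per library, coloured by genotype. The points rise together, with r = 0.79.

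The same lists of other cell types gave Sirt2 r values of 0.677 for endothelial cells, 0.446 for astrocytes, 0.334 for microglia, 0.0382 for spiny neurons, -0.0333 for choroid plexus and -0.414 for cortical excitatory neurons. These lists also vary with one another in punches, and no p is attached to them. The other 7 members had r values with the oligodendrocyte list between -0.305 and 0.348. With the other lists their r values of largest size were 0.641 for Sirt7 and 0.539 for Sirt6 with spiny neurons. Next came -0.505 for Sirt7 with astrocytes and -0.5 for Sirt5 with cortical excitatory neurons. These include iMSN-D2RKO saline ZT7 replicate 1, the library with the high Sirt6 and Sirt7 values. The part of oligodendrocyte content in the Sirt2 values at single time points was not tested.

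Genotype was compared at each time point within a treatment, 88 member and time point pairs in all. Of these 3 passed, all at ZT19 after cocaine, beside 1.77% of the 161073 tests over all genes. Each p was adjusted over the genes of its own time point and treatment, and not over time points. Nampt was lower in iMSN-D2RKO mice, with 14.8, 14.1 and 13.98 FPKM against 30.5, 24.3 and 33.0 FPKM in WT. The log2 difference was -0.98 (SE 0.32, 95% interval -1.62 to -0.33, adjusted p = 0.0464). Sirt3 was higher in iMSN-D2RKO mice, with 33.8, 32.6 and 39.7 FPKM against 9.91, 17.8 and 9.13 FPKM, a log2 difference of 1.51 (SE 0.452, 95% interval 0.60 to 2.42, adjusted p = 0.0441). Sirt5 was also higher there, with 8.76, 7.75 and 8.78 FPKM against 3.73, 4.95 and 4.28 FPKM, a log2 difference of 0.83 (SE 0.232, 95% interval 0.36 to 1.30, adjusted p = 0.0441). Sirt1 gave 5.26, 5.24 and 5.60 FPKM against 9.72, 9.47 and 11.2 FPKM, and a log2 difference of -0.80 that missed the threshold (adjusted p = 0.0524). Sirt4 gave 10.1, 9.56 and 10.7 FPKM against 5.32, 8.87 and 4.87 FPKM (log2 difference 0.64, adjusted p = 0.102).

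At that time point 3.94% of genes were higher and 7.96% lower in iMSN-D2RKO mice, 577 and 1166 genes, and the median difference was 0.27 over the 8 members and -0.05 over all genes. The WT cocaine group held 2 set-apart libraries and the iMSN-D2RKO group 0, and the members differed between the groups in the directions in which they differed by library kind. With the score as a covariate the differences were -0.20 for Nampt (adjusted p = 0.442), 0.38 for Sirt3 (adjusted p = 0.335) and 0.31 for Sirt5 (adjusted p = 0.335). Without the set-apart libraries a single WT library is left at this point, assumed to vary like the other groups, and the differences were -0.73 for Nampt (adjusted p = 0.00364), 0.95 for Sirt3 (adjusted p = 0.00369), 0.66 for Sirt5 (adjusted p = 0.000955) and -0.72 for Sirt1 (adjusted p = 0.000978). That library, WT cocaine ZT19 replicate 2, had the highest score of those kept. None of the 3 calls remained when WT cocaine ZT19 replicate 1 or 3, or any 1 of the iMSN-D2RKO cocaine ZT19 libraries, was left out, and 5 members were called without iMSN-D2RKO saline ZT7 replicate 1. In all, leaving out 44 of the 66 libraries in turn changed the number of members called, so the calls lie close to the threshold. Markers of other cells were called in the same contrast. The astrocyte gene Slc1a3 (-0.87), the microglial gene P2ry12 (-1.41) and the endothelial genes Ly6c1 (-1.27) and Slco1a4 (-0.55) were lower in iMSN-D2RKO mice and Drd1 (0.74) was higher, with adjusted p of 0.0441 to 0.0466, which was 0.335 to 0.446 with the score as a covariate. These were 1 of 7 astrocyte, 1 of 7 microglial, 2 of 5 endothelial and 1 of 8 spiny neuron markers, and 0 of 8 oligodendrocyte, 0 of 4 cortical and 0 of 3 choroid plexus markers were called. Their part in the members' differences was not tested.

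**Figure D5:**
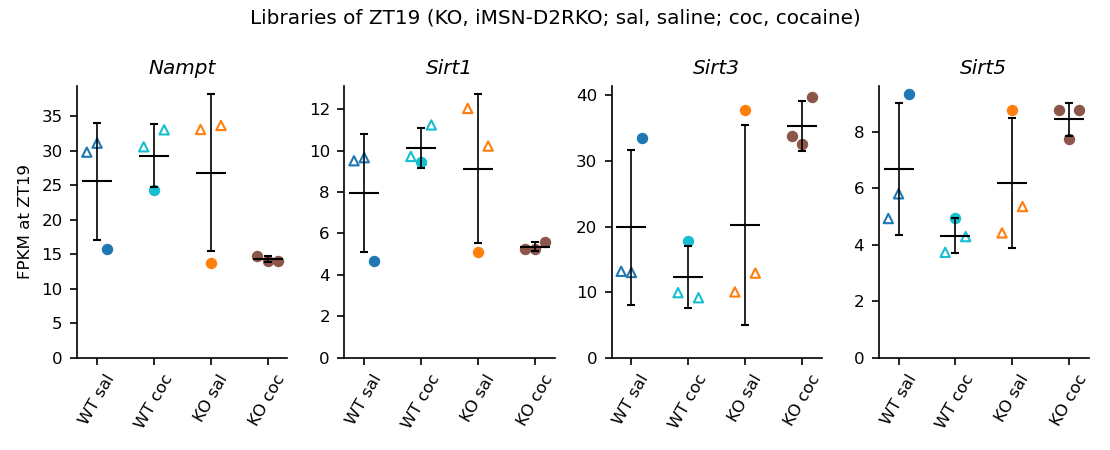
FPKM at ZT19 (vertical) of Nampt, Sirt1, Sirt3 and Sirt5 in the 4 groups of that hour, 1 point per library with bars for mean ± SD (n = 3) and open triangles for set-apart libraries. The 3 iMSN-D2RKO cocaine libraries lie beside the libraries of the other groups that were not set apart, apart from WT cocaine replicate 2.

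At the same hour after saline 0 of the 8 members passed. In iMSN-D2RKO saline mice Nampt gave 33.1, 13.8 and 33.6 FPKM at ZT19, the outer pair set apart, against 29.8, 31.1 and 15.8 FPKM in WT saline mice. Sirt3 gave 10.02, 37.7 and 12.9 FPKM against 13.2, 12.99 and 33.5 FPKM. The log2 differences of the 8 members at ZT19 after saline lay between -0.15 and 0.16, and the smallest adjusted p was 1. In both genotypes the 1 saline library of ZT19 that was not set apart had Nampt below 16 FPKM and Sirt3 above 33 FPKM, close to the iMSN-D2RKO cocaine libraries. Whether the cocaine effect differed between genotypes was tested at 5 time points, 40 pairs, and 0 passed, beside 0.00273% of tests over all genes. Uncorrected p was under 0.05 for 4 of them, all at ZT19: Sirt1 (-0.97), Nampt (-1.0), Sirt5 (0.93) and Sirt3 (1.57), with the sizes on the log2 scale and a smallest adjusted p of 0.239. All members therefore missed the test of that difference.

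Cocaine was compared with saline at ZT7 to ZT23, 4 to 20 h after the injection. In WT mice 0 of 40 pairs passed, beside 0.00683% of tests over all genes, and 1 had an uncorrected p under 0.05. That was Sirt5 at ZT19, with 3.73, 4.95 and 4.28 FPKM after cocaine and 4.92, 5.80 and 9.33 FPKM after saline, overlapping slightly (log2 difference -0.50, SE 0.232, adjusted p = 0.951). Without the set-apart libraries only 1 library is left on each side at ZT19, so the spread comes from the other groups alone; 3 pairs then passed, Sirt1 (log2 difference 0.88, adjusted p = 0.00258), Sirt5 (-0.80, adjusted p = 0.00289) and Sirt3 (-0.88, adjusted p = 0.0425). With the score as a covariate the adjusted p was 0.605, 0.4 and 0.58 for these genes. In iMSN-D2RKO mice 0 of 40 passed, beside 0.00273%, and 6 had an uncorrected p under 0.05. At ZT19 these were Nampt (log2 difference -0.76), Sirt1 (-0.60) and Sirt3 (1.0), each with an adjusted p of 0.304, where 2 of 3 saline and 0 of 3 cocaine libraries were set apart. Without the set-apart libraries these differences were 0.05, 0.06 and -0.10, each with an adjusted p of 1. At ZT7 they were Sirt1 (0.66, adjusted p = 0.176), Sirt6 (-0.42) and Sirt2 (-0.31), in a comparison that holds the 1 saline library with 23.4 FPKM of Sirt6 and a set-apart cocaine library. With the set-apart libraries left out they were 0.35, -0.33 and -0.24, with adjusted p of 0.184, 0.359 and 0.39.

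Averaged over the day, no member passed a test of level between treatments or genotypes. Cocaine against saline called 0 of 8 members in WT mice, where 0% of genes were called, and 0 of 8 in iMSN-D2RKO mice, where 0% were as well. iMSN-D2RKO against WT called 0 of 8 after saline (0.189% of genes) and 0 of 8 after cocaine (0.0487%). No member had an uncorrected p under 0.05 in any of these 4 limma tests, and the smallest adjusted p was 0.77. The largest estimate was for Sirt5 in WT mice, -0.18 for cocaine against saline on the log2 scale (SE 0.0942, 95% interval -0.38 to 0.01). A direct test of different 24 h waves also called 0 of 8 members for cocaine against saline in WT (0% of genes), for cocaine against saline in iMSN-D2RKO (0%), for genotype after saline (0%) and for genotype after cocaine (0%). The smallest adjusted p of a member in those 4 limma tests was 0.59. A rhythm called for Sirt1 or Sirt5 in WT mice and missed in iMSN-D2RKO mice was thus not shown to differ between them.

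Of 42 other genes of NAD synthesis, NAD use and sirtuin action, 40 were in the table and 32 were tested in the fit of all libraries. In WT cocaine mice 6 of 32 were called over time, beside the 28% of all genes. These were Parp2, a DNA damage polymerase that spends NAD (adjusted p = 0.000563), Acss1, a mitochondrial acetyl-CoA synthetase activated by SIRT3 (0.0171), Nmnat3 and Nmnat2, which make NAD from nicotinamide mononucleotide in mitochondria and axons (0.0233 and 0.0354), the NAD kinase Nadk (0.0256), and the urea cycle enzyme Cps1, a SIRT5 substrate at a mean of 0.107 FPKM (0.0364). With the score as a covariate Parp2 and Nmnat3 were still called (adjusted p = 0.004 and 0.0381). The calls of Acss1 (0.0937), Nmnat2 (0.447), Nadk (0.143) and Cps1 (0.12) ended. Leaving out the set-apart libraries keeps a single WT cocaine library at ZT19, so no p of that series is given for this fit. In WT saline mice and in iMSN-D2RKO saline mice 0 were called, and in iMSN-D2RKO cocaine mice 1 was, Sarm1 (adjusted p = 0.0449; 0.0902 without the set-apart libraries, 0.0114 with the score as a covariate). JTK_CYCLE called only Nmnat3 among them, in WT cocaine mice (exact p = 0.000755, peak ZT11, amplitude 1.04 FPKM). No gene of the 3 lists was called for level, for cocaine against saline at a time point, or for a difference of rhythm or of cocaine effect, by the limma tests used for the members. The smallest uncorrected p of those limma level tests was 0.00405, for Sarm1 in iMSN-D2RKO against WT after cocaine. Within the same contrast after saline the smallest was 0.0195, for Idh2.

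By genotype 7 of 352 pairs of these genes and time points passed, close to the 1.77% called over all genes. Of the 7, 1 was higher and 6 lower in iMSN-D2RKO mice. At ZT19 after cocaine lay 5 of them, where 3.94% of all genes were called higher and 7.96% lower. There Nmnat2 gave 28.8, 26.4 and 33.7 FPKM in iMSN-D2RKO mice and 12.9, 19.3 and 13.99 FPKM in WT mice (log2 difference 0.91, SE 0.277, adjusted p = 0.0441). Parp2 gave 10.4, 10.7 and 10.7 FPKM against 20.7, 22.8 and 19.2 FPKM (-0.91, SE 0.249, adjusted p = 0.0441). When set-apart libraries were left out the adjusted p was 0.0533 for Nmnat2 and 0.000221 for Parp2, with a single WT library left, and with the score as a covariate it was 0.393 and 0.335. Both genes differ by library kind as well, by a median of -0.75 for Nmnat2 and 0.75 for Parp2. Tdo2, Ido2 and Cps1, at mean levels of 0.361, 0.681 and 0.107 FPKM, were called lower, and none of them held with the score as a covariate (adjusted p = 0.359, 0.356 and 0.335). For Tdo2 the call rested on WT cocaine ZT19 replicate 1 with 5.76 FPKM against 0.332 and 0.055 FPKM in its partners, and without that library the difference was 0.0046 (adjusted p = 0.993). The median difference at this point was 0.10 over the synthesis list, -0.06 over the list of NAD use and -0.12 over the sirtuin regulators and substrates, beside -0.05 over all genes.

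Sarm1, the NAD hydrolase that drives axon degeneration, was the only gene of these NAD and sirtuin lists called by genotype at another hour. After cocaine at ZT15 it gave 4.24, 4.87 and 5.17 FPKM in iMSN-D2RKO mice and 6.95, 7.60 and 10.8 FPKM in WT mice. The log2 difference was -0.69 (SE 0.132, adjusted p = 0.0049; 0.000575 with the score as a covariate, 0.0124 when set-apart libraries were left out), and without WT cocaine ZT15 replicate 3 it was -0.53 (adjusted p = 0.284). After saline at ZT7 it gave 3.74, 6.09 and 5.65 FPKM against 7.4, 7.3 and 7.22 FPKM. That difference was -0.45 (SE 0.132, adjusted p = 0.0486) and, without iMSN-D2RKO saline ZT7 replicate 1, -0.27 (adjusted p = 1). The call also ended with no filter on low genes (adjusted p = 0.0567) and, in all, under 54 of the alternatives run against 25 under which it held, most of the 54 leaving out a library of another group, so it lies at the threshold. Library kind moved Sarm1 little, by a median of 0.05. Over all 14643 genes, 417 were called higher and 228 lower in iMSN-D2RKO mice at ZT15 after cocaine. At ZT7 after saline these counts were 366 and 83.

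The clock genes, which act upstream of Nampt in liver, were called by JTK_CYCLE for 6 of 19 in WT saline mice, 4 in WT cocaine, 3 in iMSN-D2RKO saline and 3 in iMSN-D2RKO cocaine. The shares over all genes in these series were 9.81%, 7.61%, 2.58% and 1.1%. Arntl, which encodes BMAL1, had exact p values of 0.00019, 0.000307, 0.0199 and 0.0154 in these series and peaked at ZT22 in WT saline. Per2, a repressor of the loop, had 1.43e-06, 0.0296, 0.00143 and 0.34, with a peak at ZT17 in WT saline by the same exact test. Nr1d1, which encodes REV-ERB alpha, had 0.00371, 0.00019, 0.0154 and 0.0106 and peaked at ZT11 there. Arntl, Per2 and Nr1d1 were thus called in WT saline mice. Nampt was not (exact JTK_CYCLE p = 0.0623), nor were most of the 19 clock genes. Whether the rhythm of Nampt differs from theirs was not tested.

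Genes whose group means ran most like those of a member were sought among 9584 genes over the 22 groups, as a description without a p. For Nampt these were Bmi1 (r = 0.992), Gspt1 (0.991) and Gdap1 (0.99), and for Sirt1 they were Smarcad1 (0.99), Zfp397 (0.989) and Zfp62 (0.987). Nampt and Sirt1 themselves had r = 0.952, which was 0.547 with the score removed. For Sirt3 they were Cyc1 (0.993), Tmem256 (0.99) and Gabarapl2 (0.988), and Sirt3 ran against Nampt with r = -0.949, which was -0.306 with the score removed. For Sirt4 they were Cecr5, the row Klhl17 with Mir7658, and Lime1 (0.972, 0.972 and 0.971), for Sirt5 Eml2, Slc35e4 and Zfp688 (0.948, 0.944 and 0.933), and for Sirt7 Tmem191c, Gnptg and Lemd2 (0.96, 0.938 and 0.936). Sirt2 had looser partners, Desi1 (0.894), Rhog (0.888) and 1110007C09Rik (0.847), as had Sirt6 with Meis3 (0.832), Acbd4 (0.832) and Ptp4a3 (0.831). Removing the score kept 6 of these 24 genes among the first 3 of their member, and leaving out set-apart libraries also kept 6. The named genes kept r values of 0.295 to 0.941 with their member after removing the score.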

How the data were processed

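RNA of ventral striatum punches was sequenced as stranded poly(A) libraries, single-end. The authors aligned reads to mm10 with TopHat and Bowtie2 and assembled, quantified and normalised them with Cufflinks, Cuffmerge, Cuffquant and Cuffnorm; the deposited values are FPKM per gene. The labels name Bowtie, Cuffnorm and CASAVA 1.8.2. Whether strand was used in counting is not given in the sources used here. The table has 72 columns, of which the 6 listed a second time for ZT3 are identical to their first listing, leaving 66 libraries. Depth is unknown, so no counting error is given.

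The 8 members, the gene lists and the tests were chosen with earlier results of these data known. Rhythm was tested on FPKM with JTK_CYCLE rules coded in Python 3.11.15 (periods of 20 and 24 h, ties averaged, exact null distribution, Bonferroni over periods and phases, call at 0.01); at most 1 of 3 replicates was dropped by Dixon's 95% rule. Members with fewer than 18 values had such drops: Sirt1 in WT saline kept 17. The remaining tests were fitted to log2(FPKM + 1) by limma 3.58.1 (R 4.3.3) with a trend of variance on level. Genes with at least 1 FPKM in a library of the fit were kept. Benjamini-Hochberg adjustment was over all genes within each single contrast (call at 0.05). Tests at different time points were therefore not adjusted together. Fold changes on this scale understate those of low genes. Statements that a group of 3 libraries lay above, below or clear of others are descriptions. The share of all genes that do so is not given. The score threshold for set-apart libraries was 30. Both tests were checked on simulated data with noise drawn independently for each gene and library. The simulated data held no set-apart libraries, so the check does not cover their effect. Alternatives were another pseudocount, filter, period or threshold, FPKM scaled to a common total, the score or the replicate number as a term, and fits without set-apart libraries, a replicate number or a time point; fits without each single library, and the F test without a time point, were chosen after seeing the data. Named were all 8 members, every gene called or among the 3 smallest p of the NAD lists, the 3 genes most like each member, Drd2 and 3 clock genes; not all list genes with a small p are printed. Parp1 and Glud1 were not matched, and 1 listed cell type marker is not reported here and was left out of its list. Reads of overlapping genes cannot be told apart where strand was not used.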

Additional observations from a re-analysis of the deposited data

How the results depend on the processing

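Of the recomputed counts and levels of the members, none reversed, 312 kept within 1.5 times or the spread of the value reported and 62 moved. For JTK_CYCLE in WT saline (1 called), 0 were called after removing the score, scaling FPKM to a common total, or leaving out set-apart libraries, ZT7 or ZT19, and 2 without ZT15; leaving out a replicate number gave 0 to 1 and each library 0 to 1. In WT cocaine (2 called), 0 were called after removing the score or leaving out set-apart libraries, ZT11 or ZT19, and 1 with scaled totals and without ZT3, ZT7, ZT15 or ZT23; replicates gave 0 to 1 and libraries 1 to 3. In iMSN-D2RKO saline (0 called), 1 was called with a 24 h period only, with the score removed and at a threshold of 0.05, and 0 to 1 without a library. In iMSN-D2RKO cocaine (0 called), 1 was called after removing the score, leaving out set-apart libraries or at 0.05, and 0 to 1 without a library. For the F test in WT cocaine (4 called), the score as a covariate left 2, with the replicate block 1, without ZT11 1 and without ZT19 0; replicates gave 0 to 1 and libraries 0 to 5. In WT saline (0 called) libraries gave 0 to 2, and in iMSN-D2RKO saline (0 called) they gave 0 to 3, with 2 without ZT23. By time point, cocaine in WT (0 called) gave 3 without the set-apart libraries; cocaine in iMSN-D2RKO (0 called) gave 0 to 1 without a replicate and 0 to 3 without a library; genotype (3 called) gave 0 with no filter, 0 without replicates and 0 to 5 without a library; the difference of cocaine effects (0 called) gave 0 to 4 without replicates and 1 without the set-apart libraries. The cause of these changes was not tested, beyond fewer samples where libraries were left out. Scaled to a common total, mean levels were 43.4 for Nampt, 15.2 for Sirt1, 255.6 for Sirt2, 75.5 for Sirt3, 23.96 for Sirt4, 19.6 for Sirt5, 21.1 for Sirt6 and 52.5 for Sirt7, in other units than FPKM. Of the 24 genes most like a member, 6 remained after removing the score and 6 after leaving out set-apart libraries.

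Replicate numbers did not pair libraries: over 693 same-numbered pairs the correlation of deviations had a median of -0.00269 and ran from -0.895 to 0.88, 205 were over 0.1, and 22 of 66 libraries correlated best with their own number. The replicate block alone ended the genotype calls of Sarm1 at ZT7 after saline (adjusted p = 0.0507) and of Tdo2 at ZT19 after cocaine. It changed no count of members called: the counts stayed at 4 for time in WT cocaine and 3 for genotype by time point. Set-apart libraries, 3 libraries a group and unknown depth limit these results.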
